A study of Mus musculus with 26 samples.

Results

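Type I interferon stimulated genes are described here in the lacrimal glands, which secrete the watery part of the tear film, of male C57BL/6.NOD-Aec1Aec2 mice. This congenic strain carries 2 NOD-derived intervals on a C57BL/6 background and is used as a model of Sjögren's syndrome. A list of 34 genes was taken by name, and each gene was represented by the probe set that named only that gene and had the highest mean over all arrays. Such a probe set existed for 32 of the 34 genes, among 18194 genes with a probe set on the array. Isg15 had only a probe set that also named another gene, and Ifi44 had none. A filter on low values left 26 of the 32 genes, among 12377 genes in all. The probe sets of Irf7, Oasl1, Oas3, Mx2, Dhx58 and Zbp1 did not pass it.

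Glands were profiled at 5 ages of 4, 8, 12, 16 and 20 weeks, with 4, 6, 6, 5 and 5 Affymetrix arrays in this order, 26 in all. The labels describe the 4-week glands as taken before disease. Every array came from the same strain and sex, so age is the only factor that was compared, and a control strain was not analysed here. The labels call the arrays of an age biological replicates without saying whether an array is 1 mouse or a pool, and the p-values below rest on the spread between these arrays, which may be technical.

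Type I interferons bind the receptor made of IFNAR1 and IFNAR2, whose kinases JAK1 and TYK2 activate the transcription factor complex ISGF3. This complex contains STAT2 and IRF9 and binds an interferon response element in the promoters of the induced genes. The induced proteins sense viral RNA, block viral replication or feed back on the pathway, and a raised level of these transcripts in blood or salivary gland is known from Sjögren's syndrome.

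The promoters of the list carried that element more often than promoters at large. RefSeq promoter windows on GRCm38.p6, 250 bases before to 50 bases after the annotated start, were available for 24 of the 34 genes. The core of the element, GAAA followed after any 2 bases by a further GAAA, read on both strands and with overlapping matches counted, occurred in 13 of these 24 genes (54.2%), against 1079 of 27025 genes with such a window (3.99%). The 250 bases before the start are shown for 5 genes that the results below return to, with the matches to this core or its reverse complement in capitals. Ifit1 (chr19:34640639-34640888, plus strand), Ifit3 (chr19:34583279-34583528, plus strand) and Oas1a (chr5:120907526-120907775, minus strand) each held 2 matches, which overlap in Oas1a. Rsad2 (chr12:26456453-26456702, minus strand) held 1 match, and Dtx3l (chr16:35939028-35939277, minus strand) held none in this window.
Ifit1: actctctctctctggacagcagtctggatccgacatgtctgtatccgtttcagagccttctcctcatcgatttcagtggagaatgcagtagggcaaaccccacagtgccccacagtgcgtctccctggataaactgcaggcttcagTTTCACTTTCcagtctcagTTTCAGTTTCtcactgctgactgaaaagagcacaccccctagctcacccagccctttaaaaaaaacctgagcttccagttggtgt
Ifit3: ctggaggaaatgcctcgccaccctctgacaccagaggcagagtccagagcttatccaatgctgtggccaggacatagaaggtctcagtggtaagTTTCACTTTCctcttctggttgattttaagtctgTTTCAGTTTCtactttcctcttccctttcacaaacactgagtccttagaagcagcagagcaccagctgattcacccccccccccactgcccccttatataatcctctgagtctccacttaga
Oas1a: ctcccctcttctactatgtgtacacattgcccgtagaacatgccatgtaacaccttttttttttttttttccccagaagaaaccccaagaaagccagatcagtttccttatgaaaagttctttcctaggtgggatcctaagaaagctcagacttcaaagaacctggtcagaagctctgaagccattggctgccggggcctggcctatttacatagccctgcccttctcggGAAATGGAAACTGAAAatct
Rsad2: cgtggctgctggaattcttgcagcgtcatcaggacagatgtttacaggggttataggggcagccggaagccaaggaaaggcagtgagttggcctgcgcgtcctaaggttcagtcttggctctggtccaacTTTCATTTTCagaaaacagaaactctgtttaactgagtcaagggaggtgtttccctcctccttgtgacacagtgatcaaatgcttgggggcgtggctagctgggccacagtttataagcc
Dtx3l: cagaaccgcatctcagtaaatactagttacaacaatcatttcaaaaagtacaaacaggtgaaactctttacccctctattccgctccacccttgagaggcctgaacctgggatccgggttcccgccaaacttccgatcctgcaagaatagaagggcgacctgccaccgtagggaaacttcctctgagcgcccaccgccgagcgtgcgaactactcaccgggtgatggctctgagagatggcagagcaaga
A match is a description of the letters and does not show binding.

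Tissue markers, array quality and other cell types were examined before the genes. Ltf and Lyz1, which encode the tear proteins lactoferrin and lysozyme, had log2 values of 9.71 to 13.86 and 7.29 to 12.92 on the 26 arrays. A list of salivary gland genes also had mean log2 values from 5.23 to 12.74, differing widely between arrays of the same age. Log2 values on 20 weeks replicate 1 had an SD over probe sets of 1.36, and those on 16 weeks replicate 4 an SD of 1.68, against 1.78 to 2.27 on the other 24 arrays. The lacrimal acinar list had its lowest means on these 2 arrays, 10.42 and 8.65. The 3′ minus 5′ difference of the actin control probe sets, a measure of RNA integrity, averaged 2.90 ± 0.92, 2.63 ± 0.50, 3.69 ± 0.52, 4.56 ± 1.24 and 3.89 ± 0.89 in order of age (SD, log2).

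Many of the interferon stimulated genes gave low values. A log2 value under 4.04, which is 1 unit above the typical array median, is called near background below. Of the 32 measured genes, 14 had means near background at all 5 ages, 12 stayed above it at all ages and 6 crossed it. The 14 were Ifit1, Ifit2, Irf7, Oasl1, Oas2, Oas3, Mx1, Mx2, Stat2, Dhx58, Bst2, Parp14, Trim21 and Zbp1. The size of a difference that starts or ends near background is uncertain. The number of means near background was highest at 4 weeks, with 20 of the 32 genes, and was 15, 18, 16 and 16 at the later ages in order.

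No member had its highest age mean at 4 weeks, and 14 of the 26 had their lowest there. The highest mean fell at the age of 8 weeks for 9 genes, 12 weeks for 2, 16 weeks for 6 and 20 weeks for 9. Among all 12377 genes, 13.2% were highest at 4 weeks and 19.1% lowest there. At 8, 12, 16 and 20 weeks, 17.3%, 28.8%, 12.1% and 28.7% of all genes were highest. The mean log2 value over the 26 genes had a median over the arrays of 4.49, 4.99, 4.89, 4.98 and 5.33 in order of age. The array values behind these medians reached from 4.46 to 4.71, 4.74 to 6.13, 4.74 to 5.12, 4.69 to 5.34 and 4.18 to 5.50 in the same order.

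**Figure D1:**
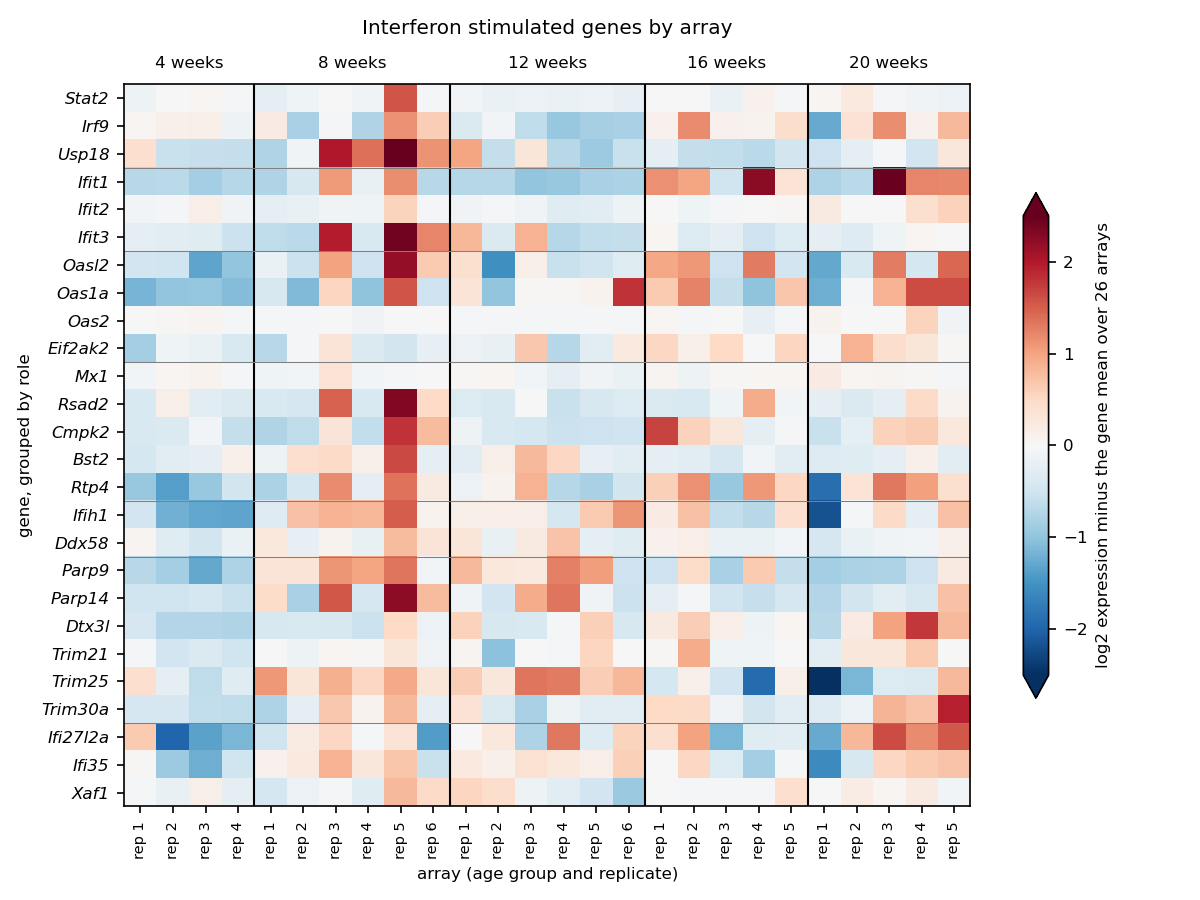
Log2 expression of the 26 interferon stimulated genes (rows, grouped by role with grey lines) on the 26 arrays (columns, grouped by age), as the difference from each gene's mean over all arrays. Red is above and blue below that mean. Replicates 3 and 5 at 8 weeks show red for most genes, and replicate 1 at 20 weeks holds the lowest value of its age for 19 of the 26, against 40.2% of all genes.

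Differences over the 5 ages passed the test for 1 gene of the list. Parp9, an ADP-ribosyltransferase family member that pairs with the ubiquitin ligase DTX3L, was the only one of the 26 with an adjusted p under 0.05 in limma's F test over all ages (adjusted p = 0.00912, Benjamini-Hochberg over 12377 genes). Over all genes 14.9% passed. At an unadjusted p under 0.05 the counts were 8 of the 26 genes and 36.9% of all genes. Ifit1, Usp18, Dtx3l, Ifih1, Eif2ak2, Trim25 and Trim30a were the other 7.

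Parp9 was low at 4 weeks and highest at 8 and 12 weeks. Its log2 values at 4 weeks were 4.39, 4.23, 3.79 and 4.30. At 8 weeks the lowest, median and highest were 5.01, 5.73 and 6.41, and at 12 weeks they were 4.57, 5.61 and 6.33. Every array of these later ages lay above every array at 4 weeks. At 16 weeks the 5 arrays had 4.57, 5.53, 4.26, 5.74 and 4.48, and at 20 weeks they had 4.23, 4.29, 4.30, 4.56 and 5.30. These values overlapped with those at 4 weeks.

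The comparison of 8 weeks with 4 weeks covers the step after the stage that the labels place before disease. Changes with age apart from disease cannot be told apart here, since a control strain was not analysed. Parp9 rose at 8 weeks, averaging 5.74 ± 0.55 at 8 weeks (SD, n = 6) and 4.18 ± 0.27 at 4 weeks (SD, n = 4), a log2 difference of 1.56 ± 0.35 (SE), or 2.95-fold (limma, adjusted p = 0.0247). It was the only one of the 26 genes to pass, where 1.36% of all genes passed and 1.14% rose. The call was lost when 4 weeks replicate 2, 3 or 4 was left out, with adjusted p of 0.0783, 0.113 or 0.0574, and likewise for 8 weeks replicate 3, 4 or 5, with 0.0585, 0.0666 or 0.0573. It was also lost after quantile normalization (0.078).

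Ifih1, which encodes the RNA sensor MDA5, showed a similar difference that missed the threshold. Its log2 values at 8 weeks were 6.49 at the lowest, 7.59 at the median and 8.33 at the highest, against 6.32, 5.60, 5.51 and 5.50 at 4 weeks. No 8-week array fell among the 4-week arrays. The log2 difference was 1.70 ± 0.45 (SE), with adjusted p = 0.0595. Parp9 and Ifih1 were the 2 of 26 genes for which all 8-week arrays lay above all 4-week arrays, an order found in 3.34% of all genes.

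The remaining genes mostly had higher means at 8 weeks without passing the test. Of the 26 genes, 24 had a higher mean at 8 weeks (92.3%, against 52.5% of all genes), and the median log2 difference was 0.67, against 0.03 for all genes. Quantile normalization gave a median of 0.44 over the list, and leaving out 8 weeks replicate 5 gave 0.40. Ifit2, an antiviral translation inhibitor, and Oas2, a synthase of the messenger 2′-5′ oligoadenylate, were the 2 with lower means (-0.02 and -0.04). At an unadjusted p under 0.05, 8 of the 26 genes were higher and none lower, against 9.66% of all genes higher and 4.47% lower. In bulk tissue, more cells of a type and more RNA per cell cannot be told apart.

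**Figure D2:**
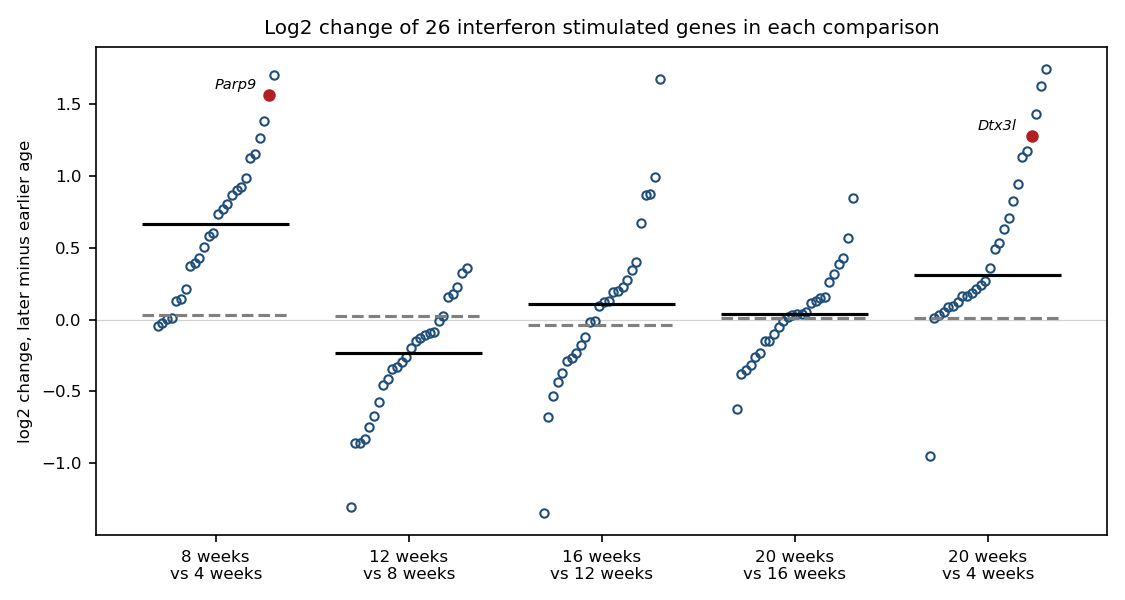
Log2 change (later minus earlier age) of each of the 26 genes in the 5 comparisons. Open circles did not pass the adjusted p threshold of 0.05 and filled red circles did, the black line is the median of the 26 genes and the dashed grey line the median of all 12377 genes. The list median is 0.67 at 8 weeks against 4 weeks, where Parp9 passed, and 0.31 at 20 weeks against 4 weeks, where Dtx3l passed.

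Arrays of the same age differed most at 8 weeks. The median SD of the 26 genes was 0.21, 0.67, 0.46, 0.44 and 0.48 in order of age, while the median SD of all genes was 0.27, 0.31, 0.36, 0.26 and 0.37 in that order. Replicates 3 and 5 were the 2 highest 8-week arrays for 16 of the 26 genes, a pair that was highest for 2.29% of all genes. Replicate 5 alone was the highest of its age for 20 of the 26 genes, against 6.96% of all genes. The mean over the 26 genes was 6.13 on replicate 5 and 5.62 on replicate 3, and the other 4 arrays had 4.74, 4.77, 4.90 and 5.09.

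Usp18 had the widest range at 8 weeks, and Ifit3 the largest SD (1.28 for Usp18 and 1.38 for Ifit3). Usp18 encodes the protease that removes ISG15 from proteins and blocks signalling at IFNAR2. Its log2 values were 4.55, 3.56, 3.55 and 3.53 at 4 weeks. At 8 weeks they were 3.37, 4.03, 6.13, 5.50, 6.80 and 5.25 on replicates 1 to 6, and at 12 weeks 5.10, 3.52, 4.43, 3.43, 3.20 and 3.56. Replicates 3 and 5 at 8 weeks stood above all other arrays of the study for this gene. At 16 weeks the 5 values lay between 3.44 and 3.88, and at 20 weeks between 3.61 and 4.40.

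The Usp18 difference between 8 and 4 weeks was 1.38 ± 0.48 (log2, SE, limma adjusted p = 0.178), and that between 12 and 8 weeks was -1.31 ± 0.43 (adjusted p = 0.624). Neither passed, and the groups overlapped. The means at 4 and 12 weeks (3.80 and 3.87) were near background.

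Ifit3, Rsad2 and Oasl2 shared the 2 high arrays; they are described in this detail because of their values. Ifit3, an antiviral protein that binds IFIT1, had 6.12 on replicate 3 and 6.58 on replicate 5 at 8 weeks, while replicates 1, 2, 4 and 6 had 3.54, 3.49, 3.79 and 5.38. Rsad2, the antiviral enzyme viperin, had 5.57 and 6.42 on the same 2 arrays and 3.67 to 4.60 on the other 4. Oasl2, an OAS-like protein, had 6.24 and 7.42, with 4.69 to 5.88 on the other 4. For Ifit3 and Rsad2 no array of another age reached the lower of the 2 values.

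Stat2, Parp14, Bst2 and Irf7 were among the weakly expressed genes with their highest 8-week value on replicate 5. That array was the highest of its age for 6.96% of all genes kept. Stat2, the ISGF3 subunit, had 4.95 on replicate 5 and 3.15 to 3.35 on the other 8-week arrays. Parp14, a further ADP-ribosyltransferase, had 4.62 on replicate 3 and 5.30 on replicate 5, with 2.25 to 3.86 on the other 4. Bst2, which encodes the virion-tethering protein tetherin, had 4.38 on replicate 5 and 2.50 to 3.22 on the rest. Irf7, the transcription factor that amplifies interferon production, had 3.35 on replicate 5 and 2.21 to 2.60 on the rest.

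For the pan-leukocyte list the 2 high arrays also had the highest means of their age, by a small margin over replicate 4. The mean log2 value of 6 pan-leukocyte genes was 7.04 on replicate 3 and 7.06 on replicate 5, and 6.47, 5.95, 6.99 and 5.61 on replicates 1, 2, 4 and 6. On replicate 4, with 6.99, the mean of the interferon stimulated genes was 4.90. The mean of 12 macrophage genes was 7.17, 6.70, 7.47, 7.53, 7.17 and 6.64 on replicates 1 to 6. Replicate 4 was thus the highest for the macrophage genes, and replicate 5 lay below replicate 3. The interferon gamma inducible list had 4.69 on replicate 3 and 5.65 on replicate 5, with 4.09 to 4.52 on the other 4 arrays of that age. The part of leukocyte content in the 2 high arrays was not tested.

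**Figure D3:**
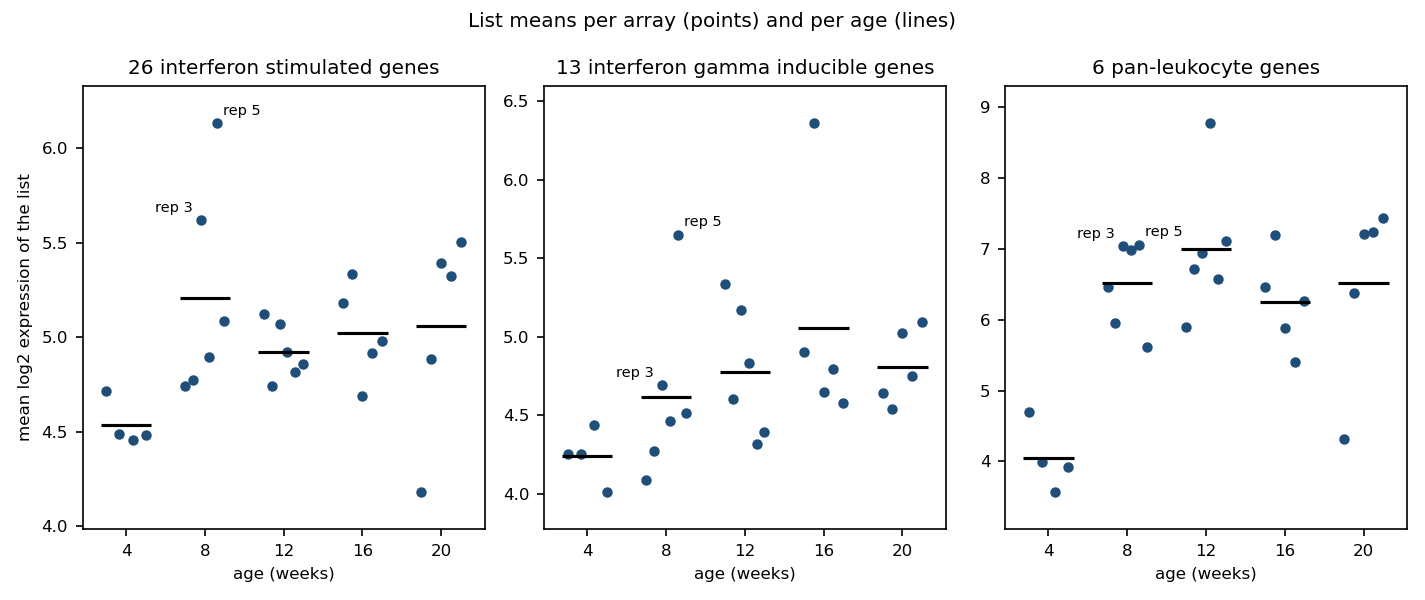
Mean log2 expression per array (points) and per age (lines) of the 26 interferon stimulated genes, 13 interferon gamma inducible genes and 6 pan-leukocyte genes, against age in weeks. Replicates 3 and 5 at 8 weeks are labelled, with 5.62 and 6.13 for the interferon stimulated genes and 7.04 and 7.06 for the pan-leukocyte genes. The scale of the vertical axis differs between panels.

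At 12 weeks against 8 weeks none of the 26 genes passed the test in limma, and 2 had an unadjusted p under 0.05, Usp18 and Rsad2, both lower at 12 weeks, against 4.96% of all genes in either direction and 1.55% lower. Over all genes 0.0162% passed. The median log2 difference of the list was -0.23, against 0.02 for all genes, and 6 of 26 genes (23.1%) had higher means at 12 weeks, against 57.0% of all genes. The list median became -0.06 without 8 weeks replicate 5. No member had all 12-week arrays below or above all 8-week arrays, an order found in 0.145% and 0.299% of all genes.

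At 16 weeks against 12 weeks none of the 26 genes passed in limma, against 2.98% of all genes. At an unadjusted p under 0.05 there were 5 of the 26, a share close to the 20.9% of all genes. By direction, 3 were higher and 2 lower, against 5.36% of all genes higher and 15.5% lower. Ifit1, Irf9 and Cmpk2 had higher means and Parp9 and Trim25 lower means at 16 weeks. The median log2 difference was 0.11, against -0.04 for all genes, with 14 of 26 genes higher (53.8%, against 46.6% of all genes). After quantile normalization 20 of 26 were higher, with a list median of 0.20. The median of all genes also moved, to 0.05.

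Ifit1, which binds viral RNA lacking a normal cap and whose promoter holds 2 interferon response element matches, was low on every 4-week and 12-week array. Its log2 values at 16 weeks were 4.12, 3.98, 2.49, 5.26 and 3.33, against 2.01 at the lowest, 2.19 at the median and 2.29 at the highest at 12 weeks. At 4 weeks the 4 arrays had 2.29, 2.31, 2.15 and 2.27. All 16-week arrays lay above all 12-week arrays. At 8 weeks the values ran from 2.23 over a median of 2.69 to 4.16, and at 20 weeks Ifit1 had 2.22, 2.32, 5.47, 4.22 and 4.20. High and low arrays thus occurred together at 8, 16 and 20 weeks. The log2 difference between 16 and 12 weeks was 1.67 ± 0.51 (SE), with adjusted p = 0.0699, and is not read as a fold because the means at both ages, 3.84 and 2.16, were near background.

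Irf9, the DNA-binding subunit of ISGF3, had its lowest mean at 12 weeks. At 16 weeks its log2 values were 6.67, 7.76, 6.67, 6.64 and 7.01, against 5.63 at the lowest, 5.84 at the median and 6.50 at the highest at 12 weeks. The 2 ages did not overlap, and the log2 difference was 0.99 ± 0.36 (SE, adjusted p = 0.120). Ifit1 and Irf9 were the only 2 of the 26 genes with every 16-week array above every 12-week array, an order found in 0.848% of all genes. Cmpk2, a mitochondrial nucleotide kinase next to Rsad2 in the genome, had values of 4.09 to 6.03 at 16 weeks and 3.79 to 4.21 at 12 weeks, and its log2 difference was 0.87 ± 0.38 (SE, adjusted p = 0.196).

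Trim25, the ubiquitin ligase that activates the RNA sensor RIG-I, went the other way. At 16 weeks its log2 values were 7.22, 7.79, 7.20, 5.76 and 7.81, against 7.95 at the lowest, 8.40 at the median and 9.01 at the highest at 12 weeks. They were 8.10, 7.42, 7.04 and 7.36 at 4 weeks, 7.97 to 8.76 at 8 weeks, and 3.02, 6.53, 7.33, 7.31 and 8.48 at 20 weeks. All 16-week arrays lay below all 12-week arrays, an order found in 3.66% of all genes. The log2 difference was -1.34 ± 0.60 (SE, adjusted p = 0.205). The lowest values, 3.02 and 5.76, came from the 2 arrays with the lowest SD over probe sets. The part of array quality in this difference was not tested.

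**Figure D4:**
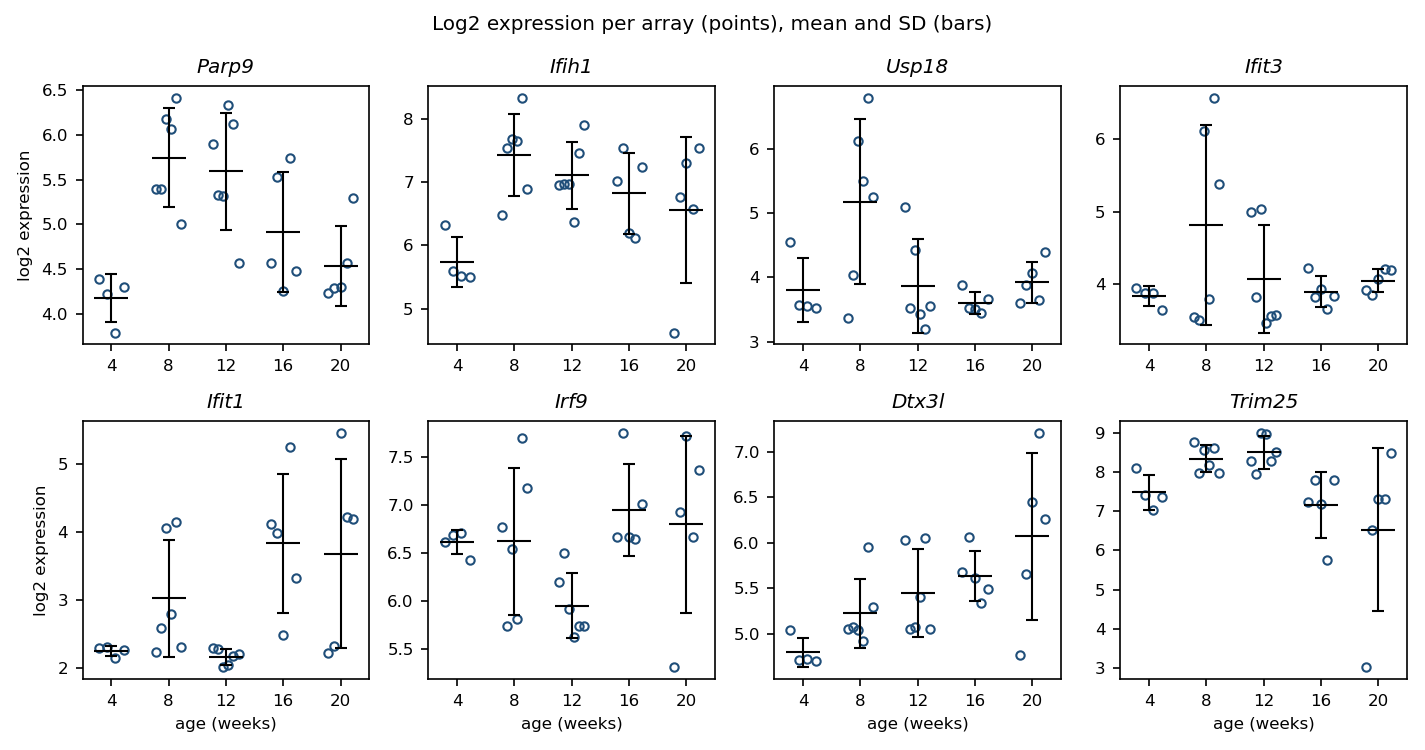
Log2 expression on each array (open circles) with the mean and SD (bars) at each age in weeks for Parp9, Ifih1, Usp18, Ifit3, Ifit1, Irf9, Dtx3l and Trim25. Parp9 and Ifih1 at 8 weeks lie above all 4-week arrays, Usp18 and Ifit3 spread most at 8 weeks, Ifit1 is low on all 4-week and 12-week arrays, and Trim25 has an array at 3.02 at 20 weeks.

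At 20 weeks against 16 weeks none of the 26 genes passed in limma, where 0.0162% of all genes did, and Ifit2 alone had an unadjusted p under 0.05, against 8.14% of all genes. Its log2 values at 20 weeks were 3.72, 3.49, 3.49, 3.91 and 4.09, against 3.50, 3.40, 3.45, 3.50 and 3.52 at 16 weeks, near background at both ages. The median log2 difference of the list was 0.04, against 0.01 for all genes, and became -0.01 when arrays were centred on their medians. No member had all 20-week arrays above or below all 16-week arrays, an order found in 0.331% and 0.937% of all genes.

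At 20 weeks against 4 weeks Dtx3l, the ubiquitin ligase partner of PARP9, rose. Its log2 values at 20 weeks were 4.76, 5.66, 6.45, 7.21 and 6.27, against 5.04, 4.72, 4.73 and 4.70 at 4 weeks. The groups overlapped because 20 weeks replicate 1 lay below 4 weeks replicate 1. Dtx3l averaged 6.07 ± 0.92 at 20 weeks (SD, n = 5) and 4.79 ± 0.16 at 4 weeks (SD, n = 4), a log2 difference of 1.28 ± 0.34 (SE), or 2.42-fold (limma, adjusted p = 0.0477). It was the only one of the 26 genes to pass, where 2.21% of all genes passed and 0.897% rose. The means at 8, 12 and 16 weeks lay between, at 5.22, 5.45 and 5.64.

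The Dtx3l call was the less stable of the 2. Among the fits that left out 1 array, it was kept in 5 of 26, those without 8 weeks replicate 5, 12 weeks replicate 1 or 5, 16 weeks replicate 4 or 20 weeks replicate 1. With only the 4-week and 20-week arrays in the fit the adjusted p was 0.399. A further Dtx3l probe set had means of 4.99, 5.40, 4.99, 5.31 and 5.60 from 4 to 20 weeks. On GRCm38.p6 the annotated spans of Parp9 (chr16:35938470-35972621) and Dtx3l (chr16:35926515-35939027) overlap by 558 bases. Their highest means nevertheless fell at different ages, 8 weeks for Parp9 and 20 weeks for Dtx3l.

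Most other genes had higher means at 20 weeks than at 4 weeks. Of the 26 genes, 25 were higher (96.2%, against 52.4% of all genes), with a median log2 difference of 0.31, against 0.01 for all genes. The exception was Trim25. Without 20 weeks replicate 1 the list median was 0.50 and 6 of the 26 genes passed. In that fit 722 of all 12377 genes passed, against 273 with every array. Without 20 weeks replicate 5 the list median was 0.19. At an unadjusted p under 0.05, 8 of the 26 genes were higher and none lower, against 5.99% of all genes higher and 8.65% lower.

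For Trim30a and Eif2ak2 all 20-week arrays lay above all 4-week arrays, an order found in 1.58% of all genes. Trim30a, a regulator of Toll-like receptor signalling, had 4.38, 4.55, 5.54, 5.41 and 6.64 at 20 weeks, against 4.27, 4.27, 4.09 and 4.06 at 4 weeks, a log2 difference of 1.13 ± 0.37 (SE, adjusted p = 0.113). Eif2ak2, the RNA-activated kinase PKR, had 4.94, 5.79, 5.37, 5.22 and 4.95 at 20 weeks, against 4.07, 4.82, 4.76 and 4.55 at 4 weeks, a log2 difference of 0.70 ± 0.24 (SE, adjusted p = 0.144). A further Trim30a probe set had means of 3.27, 3.76, 3.98, 4.19 and 4.25 from 4 to 20 weeks. The stronger of the other Eif2ak2 probe sets had 4.43, 4.61, 4.21, 4.55 and 4.66. Its correlation with the chosen Eif2ak2 probe set was 0.138. Oas1a, a 2′-5′ oligoadenylate synthetase, had 2.81 to 5.66 at 20 weeks and 2.87 to 3.06 at 4 weeks. Ifi27l2a, a mitochondrial membrane protein gene, had 8.06 to 10.95 at 20 weeks and 7.33 to 9.97 at 4 weeks. Their log2 differences of 1.63 ± 0.61 and 1.74 ± 0.59 (SE) had adjusted p-values of 0.190 and 0.134, and the 2 ages overlapped for both genes.

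The other genes varied between arrays without a call in any comparison. Rtp4, an antiviral chaperone-like protein, had age means of 6.27, 7.42, 7.01, 7.68 and 7.44 from 4 to 20 weeks, and at 20 weeks its arrays ran from 5.32 to 8.52. Ifi35 had age means of 8.77, 9.69, 9.71, 9.28 and 9.39. Ddx58, which encodes RIG-I, had age means from 6.49 to 6.88, and its 26 arrays lay between 6.24 and 7.48. Xaf1, a pro-apoptotic factor, had means from 3.85 to 4.06, and the antiviral GTPase gene Mx1 had means from 3.24 to 3.39. Trim21, which encodes the Sjögren's autoantigen Ro52, had means of 3.05, 3.42, 3.31, 3.54 and 3.58 from 4 to 20 weeks, all near background. Of the 6 genes left out by the filter, Oasl1, Oas3, Mx2 and Dhx58 stayed at or under 3.01 on all 26 arrays, while Zbp1, a sensor of left-handed nucleic acids, reached 3.96 on 8 weeks replicate 3.

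Pairs of the genes were mostly positively correlated between arrays of the same age. After each age mean was subtracted, the median Pearson correlation over the 325 pairs of the 26 genes was 0.359 over 26 arrays, and 87.7% of pairs were positive. Over all pairs of the 12377 genes the median was 0.023 and 51.8% were positive. Without 8 weeks replicate 5 the median was 0.266. Oasl2, Rtp4 and Oas1a followed the mean of the other members most closely, with correlations of 0.793, 0.783 and 0.758, while Mx1, Eif2ak2 and Oas2 had -0.05, 0.034 and 0.09. These are descriptions, and the points share array quality and tissue composition.

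Outside the list, the genes whose pattern over the 26 arrays was most like the mean of the 26 members were Apod, Lgals3bp, Irgm2, Cxcl10, Lipa, H2-Eb1, C1qc and H2-K1. Their Pearson correlations with that mean were 0.784, 0.779, 0.736, 0.725, 0.707, 0.703, 0.697 and 0.695. Lgals3bp and Cxcl10 reached their highest values, 6.19 and 5.92, on 8 weeks replicate 5. For Cxcl10, a chemokine gene, Spearman's correlation was lower, at 0.528. The 2 arrays farthest from the median of the members' mean were 8 weeks replicate 5 and 20 weeks replicate 1. Without them the Pearson correlations, in the order the genes were first named, were 0.818, 0.708, 0.651, 0.654, 0.664, 0.693, 0.725 and 0.587. These correlations are across arrays that also differ in age and in leukocyte genes.

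Few genes of the rest of the pathway passed the F test, which 14.9% of all genes passed. Of 18 type I and III interferon genes listed, 9 were measured, 5 passed the filter and none passed any test. Ifnb1, the interferon beta gene, had log2 values between 2.45 and 3.59 on the 26 arrays. Among 9 receptor and kinase genes kept, 1 passed the F test, Il10rb, which encodes a receptor chain for interferon lambda and interleukin 10 and fell at 16 weeks against 12 weeks (log2 difference -1.30 ± 0.35, limma adjusted p = 0.0478). Ifnar1 lay between 2.95 and 3.83 and Ifnar2 between 3.85 and 7.09, and neither passed. None of 11 sensor and adaptor genes passed the F test, among them Irf3, with values from 4.70 to 9.63 and a log2 difference of -1.37 ± 0.51 between 16 and 12 weeks (SE, adjusted p = 0.130), and none of 10 negative regulators passed.

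Among 34 further interferon stimulated genes kept, 4 passed the F test, Ifi204, Isg20, Trim12c and Sp100. Isg20, an exonuclease of single-stranded RNA, rose at 8 weeks against 4 weeks by a log2 difference of 3.75 ± 0.70 (SE, limma adjusted p = 0.00608). Of all genes 1.14% rose in that comparison. At 16 weeks against 12 weeks Sp100, a nuclear body protein, and Slfn9 fell, with log2 differences of -0.91 ± 0.18 and -1.33 ± 0.32 (SE, adjusted p = 0.0127 and 0.0312). Of all genes 2.63% fell between these ages. Of 13 interferon gamma inducible genes, 1 passed the F test, the GTPase gene Gbp2 (adjusted p = 0.0354), with age means of 4.64, 5.96, 6.84, 7.28 and 6.77 from 4 to 20 weeks. The highest array of that list was 16 weeks replicate 2, with a list mean of 6.36.

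Leukocyte genes moved with the step between 4 and 8 weeks. Of 6 pan-leukocyte genes, 4 rose at 8 weeks, Ptprc, Laptm5, Cd52 and Tyrobp, where 1.14% of all genes rose. The list mean per array ran from 5.61 to 7.06 at 8 weeks and from 3.57 to 4.70 at 4 weeks. Of 12 macrophage genes, 6 rose, with a list mean of 6.64 to 7.53 at 8 weeks and 4.84 to 5.42 at 4 weeks. At 20 weeks against 4 weeks 4 of the 6 pan-leukocyte and 5 of the 12 macrophage genes rose, and 3 of 5 plasma cell genes. Of all genes 0.897% rose in that comparison. T cell genes had list means of 3.06 to 3.88 on the 26 arrays, near background, and none of 4 passed the F test, nor did the 2 B cell genes kept. On 12 weeks replicate 4 the B cell genes Ms4a1, Cd79a, Cd79b, Fcrla and Blk had their highest values, 7.02, 6.67, 5.65, 4.91 and 3.60. Pax5 and Cd22 stayed at or under 2.75 on all arrays. Plasmacytoid dendritic cells are known as strong interferon producers, and 7 of their 8 listed genes were measured. Siglech, which defines these cells, stayed between 2.33 and 2.68 on all arrays, Cox6a2 between 2.25 and 2.70 and Pacsin1 between 2.31 and 4.23. Tcf4, Ccr9, Irf8 and Klk1, which other cell types also express, reached 8.41, 6.44, 6.74 and 14.70, and of these 4 kept genes only Irf8 passed the F test (limma adjusted p = 0.0293). The part of leukocyte content in the differences of the interferon stimulated genes was not tested.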

How the data were processed

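The deposited values, per the file headers a value table of 45101 probe sets on 26 arrays, are on a log2 scale already normalized by the authors; the submitters' processing notes name RMA and GCRMA without saying which step each made. Per the labels, total RNA was labelled with biotin. Scanner files were not used here, so no background call exists per probe. No further normalization was applied. Probe sets were named through the platform annotation (34958 with 1 gene symbol, 932 with several, 9211 not listed). A gene was kept if its probe set exceeded the array median on at least 4 arrays. Array medians were 2.94 to 3.22. A mean per age was fitted with limma 3.58.1 in R 4.3.3, with an F test over the ages and 5 contrasts, two-sided, and Benjamini-Hochberg adjustment over 12377 genes at 0.05. The code was tested on simulated data. The number of arrays limits the precision.

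The genes and all lists were chosen with earlier results of these data known, so counts over them are descriptions. Values per array, or their range, are given at some or all ages. This covers the 10 genes with the smallest F test p and the 4 with the widest range within an age. It also covers any gene that passed, and others chosen after their values were seen. Of each other list at most 4 genes with the smallest F test p were to be named. The 8 genes most correlated with the list were named as well. Pan-leukocyte and B cell genes, Sp100, Slfn9, Siglech and the tear protein genes were named for their calls or values or as markers. Alternatives covered normalization, filter, probe choice, variance model, array weights, a replicate block, the SD of the array as covariate and leaving out each array. Arrays sharing a replicate number did not deviate together (median correlation -0.0804 over 47 pairs), so the numbers were not used as pairs. No 2 arrays were duplicates (correlations 0.797 to 0.99).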

Additional observations from a re-analysis of the deposited data

Results flagged for a closer look

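Of 160 sets made of a gene and an age, 20 held an array beyond Dixon's limit. That limit applies to the gap to the nearest neighbour, relative to the range of the age. For independent, normally spread values chance gives about 1 in 20 sets. The share among all genes was not determined, and several flagged values were near background. Values are log2. At 8 weeks, replicate 5 was high for Ifit2 (4.05), Irf7 (3.35), Stat2 (4.95) and Dtx3l (5.95), and replicate 3 was high for Mx1 (3.67) and Zbp1 (3.96). At 4 weeks, replicate 1 was high for Usp18 (4.55), Ifih1 (6.32) and Dtx3l (5.04), 3 genes that were low on the other 3 arrays of that age. At 12 weeks, replicate 1 was high for Cmpk2 (4.21) and replicate 2 low for Trim21 (2.37). At 16 weeks, replicate 4 was high for Irf7 (3.69) and Rsad2 (5.03), replicate 2 was high for Trim21 (4.32) and low for Mx1 (3.20), and replicate 5 was high for Xaf1 (4.40). At 20 weeks, replicate 5 was high for Irf7 (3.26), replicate 4 was high for Oas2 (3.71) and Bst2 (2.85), and replicate 1 was low for Ifi27l2a (8.06). Irf7 thus stood out on a different array at each of 3 ages and lay between 2.15 and 2.60 on every other array.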

How the results depend on the processing

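The median differences of the list kept their direction in all 5 comparisons, except at 20 weeks against 16 weeks, where the median lay near 0. The number of genes passing depended on the model. In the F test 1 member passed, and 6 did after quantile normalization, 3 with the stricter filter, 3 with the mean of all probe sets, 3 without _x_at and _s_at probe sets, 2 with trend and robust eBayes, 17 with array weights, 3 with array SD as covariate and 9 without the 2 arrays of lowest SD. Of all genes 1847 passed, or 8152 with array weights, a fit whose weights did not converge. At 8 weeks against 4 weeks 1 member passed, and 0 after quantile normalization, 2 with the stricter filter, 16 with array weights, 2 with only the arrays compared and 3 without the 2 arrays; of all genes 168 passed, or 4557 with array weights and 604 without the 2 arrays. At 12 weeks against 8 weeks 0 members passed, or 1 with array weights; of all genes 2 passed, and 8 after quantile normalization, 1 after centring, 1 with the stricter filter, 10 with the mean of probe sets, 4 without _x_at and _s_at probe sets, 142 with array weights, 21 with array SD, 4 with only the arrays compared and 8 without the 2 arrays. At 16 weeks against 12 weeks 0 members passed, and 1 after quantile normalization (Irf9), 1 with the stricter filter (Ifit1), 1 without _x_at and _s_at probe sets (Trim25) and 2 with array weights (Irf9 and Trim25); of all genes 369 passed, and 201 without a filter, 2795 with array weights and 756 with array SD. At 20 weeks against 16 weeks 2 of all genes passed, and 46 after quantile normalization, 1 after centring, with the stricter filter, with the mean of probe sets or with trend and robust eBayes, 249 with array weights, 46 with array SD and 10 without the 2 arrays. At 20 weeks against 4 weeks 1 member passed, and 5 after quantile normalization, 10 with array weights, 5 with array SD, 8 without the 2 arrays and 0 after centring, without a filter, with the mean of probe sets, with trend and robust eBayes or with only the arrays compared; of all genes 273 passed, and 852 after quantile normalization, 178 after centring, 163 without a filter, 3473 with array weights, 1091 with array SD, 4 with only the arrays compared and 1021 without the 2 arrays. The cause of these shifts was not tested.

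With the replicate number as a block, 2 members passed the F test and 0 passed at 20 weeks against 4 weeks; of all genes 93 passed at 8 weeks against 4 weeks, 1 at 12 against 8 weeks, 228 at 16 against 12 weeks, 0 at 20 against 16 weeks and 165 at 20 against 4 weeks. The labels do not state that the numbers pair the arrays. Of 26 arrays, 2 correlated best with one of their own number, which does not show whether same-numbered arrays share a batch.

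Leaving out 1 array at a time gave 1 to 7 members and 1380 to 2952 genes in the F test (7 without 20 weeks replicate 1, 4 without 20 weeks replicate 5, 3 without 8 weeks replicate 1, and 2 without 8 weeks replicate 2, 3 or 5, 12 weeks replicate 1 or 3, 16 weeks replicate 3 or 20 weeks replicate 2). It gave 0 to 2 members, 61 to 417 genes and list medians of 0.40 to 0.76 at 8 against 4 weeks, where 2 members passed without 8 weeks replicate 6 or 20 weeks replicate 1. At 12 against 8 weeks it gave 0 members, 1 to 7 genes and medians of -0.33 to -0.06. At 16 against 12 weeks it gave 0 to 3 members, 3 of them without 20 weeks replicate 1, 68 to 886 genes and medians of 0.06 to 0.15. At 20 against 16 weeks it gave 0 members, 0 to 12 genes and medians of -0.03 to 0.20. At 20 against 4 weeks it gave 0 to 6 members, 73 to 722 genes and medians of 0.19 to 0.50. The F test call of Parp9 held in all 37 alternatives, with adjusted p up to 0.0481. Low signal limits the 14 genes near background at all ages.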
